A study of Homo sapiens with 6 samples.

Results

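The genes described here encode the translation initiation and elongation factors of human cells and a few proteins named after them. They were taken from the gene table by symbol, as protein-coding genes whose names begin with EIF1 to EIF6 or with EEF1 or EEF2, with the eIF2 kinases left out because they only share the prefix. This gave 67 genes of 58735 listed, 19951 of which were protein-coding. By name and known role, 45 were counted as initiation factors, 14 of them subunits of eIF3. EIF5A and its relatives were counted among the 45 by their name, although they act in elongation. A further 6 were elongation factors, 14 were binding partners or modifying enzymes, and 2 were readthrough genes that join a factor gene to its neighbour. HCT116, a human colorectal carcinoma line, was transfected with a control (CTR) or with 50 nM miR-8485 mimics. The study's methods give collection at 48 h or at other stated times, and no separate time for the sequenced RNA. RNA was sequenced from 3 libraries of each group, described as independent biological replicates, and the p-values below measure the spread between these libraries. A mimic is a synthetic RNA with the sequence of a mature microRNA. All libraries came from this single line, with transient transfection at a single stated dose and no series of times. The sequence and dose of the control were not given in the sources used here.

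Translation starts when eIF2 brings the initiator tRNA to the small ribosomal subunit, where eIF1, eIF1A, eIF3 and eIF5 hold the scanning complex together. The eIF4F complex, made of the cap-binding protein eIF4E, the scaffold eIF4G and the helicase eIF4A, recruits that subunit to capped mRNA. In elongation, eEF1A delivers each aminoacyl-tRNA, the eEF1B subunits recharge eEF1A with GTP, and eEF2 moves the ribosome along. Many mRNAs of the translation machinery begin with a C and a run of pyrimidines, the terminal oligopyrimidine (TOP) tract, through which mTOR signalling controls their translation.

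The mimic is shown because its seed, bases 2 to 8 from the 5′ end, sets which 3′ UTR sequences it can pair with. It is 17 bases long and matched bases 75 to 91 of the 91-base MIR8485 hairpin in GENCODE release 44. The capitals mark the seed, ACACACA, and the DNA letters of its perfect match are TGTGTGT.
miR-8485 mimic: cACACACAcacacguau

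The values were FPKM, which divide the fragments of a gene by its length and by the total of the library, so each level is relative to the rest of its own library. The libraries held 17473874 to 18480047 fragments on listed genes, and 100% of the values above 0 came out as whole fragments, within 0.01 of a fragment. A gene was tested if its mean FPKM over the 6 libraries was at least 1, which 12349 genes and 62 of the 67 members passed, and it was called at an adjusted p under 0.05 in limma. Changes are log2 fold changes of FPKM plus 0.1, miR-8485 minus CTR, with their standard error (SE). Of 7 colon epithelial markers, 5 reached a mean of 1 FPKM, whereas VIL1 and CEACAM5 did not, and their summed level was 1519 to 1646 FPKM in CTR and 1004 to 1036 in miR-8485 libraries. Of the markers of other cell types, 1 of 4 fibroblast genes reached 1 FPKM (DCN was at 0), as did 0 of 3 leukocyte genes (CD3E was at 0) and 0 of 2 endothelial genes. The summed fibroblast markers were at 4.13 to 4.39 FPKM in CTR and 6.27 to 6.40 in miR-8485 libraries, and the part of these shifts in the results below was not tested.

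The translation factor genes moved in both directions. Of the 62 tested, 23 rose, 19 fell and 20 were not called, where 29.1% of all genes tested rose and 30.5% fell. Their median log2 fold change was 0.039, with 33 genes above 0 and 29 below, beside a median of -0.004 over all genes. A change of at least 0.5 was called upward in 9 members and downward in 5, where the shares over all genes were 14.5% and 15.0%. The libraries of the groups did not overlap in 27 members that were higher and 20 that were lower with miR-8485, against 32.5% and 34.0% of all genes. The median size of a member's change, without its sign, was 0.287 with a median SE of 0.053, and over all genes these were 0.329 and 0.082. In bulk RNA, fewer cells of a kind and less RNA per cell cannot be told apart.

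**Figure D1:**
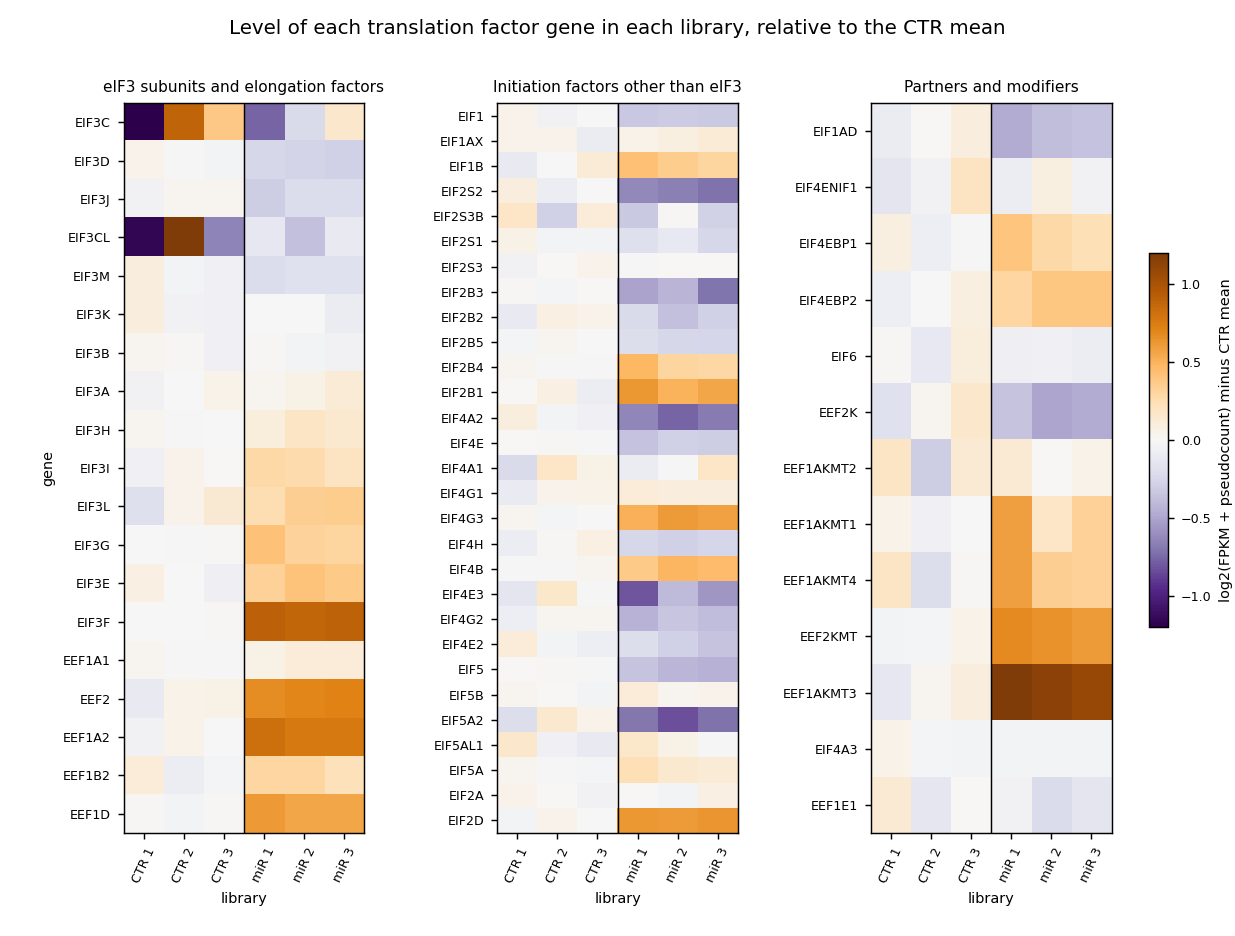
Log2(FPKM + 0.1) of 61 of the 62 tested genes (all but the Y-linked EIF1AY, whose level by library is not shown) in each of the 6 libraries, minus the mean of the 3 CTR libraries (colour scale from -1.2 to 1.2), with genes in rows and libraries in columns. EEF2, EEF1A2, EEF1D and EIF3F are raised in all 3 miR-8485 libraries, EIF2S2, EIF4A2 and EIF5A2 are lowered in all 3, and EIF3C and EIF3CL differ between the CTR libraries themselves.

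All 5 elongation factors tested had higher FPKM after the mimic, and 4 of them rose, where 29.1% of all genes tested rose. On rescaling each library to the same sum (TPM), EEF1A1, which was not called, turned to a log2 fold change of -0.025, and the others stayed above 0. EEF2, the translocase, was at 818, 916 and 920 FPKM in the CTR libraries and at 1410, 1432 and 1456 in the miR-8485 libraries. EEF1A2, the tissue-restricted form of eEF1A, was at 108, 116 and 112 FPKM in CTR and at 197.5, 190.3 and 189.5 with the mimic. Neither gene had overlapping groups, and both rose, EEF2 by a log2 fold change of 0.70 (SE 0.057, adjusted p = 4.7e-05) and EEF1A2 by 0.78 (SE 0.042, adjusted p = 9.3e-06). The eEF1B subunit EEF1D, part of the factor that recharges eEF1A, was at 17.5, 16.9 and 17.6 FPKM in CTR and at 26.6, 25.5 and 25.6 with the mimic, a rise of 0.57 (SE 0.043, adjusted p = 3.3e-05). Its partner EEF1B2, also an exchange subunit, was at 354.3, 309.6 and 321.9 FPKM in CTR and at 403, 403 and 382 with the mimic. All its miR-8485 libraries were above all CTR libraries, and it rose by 0.27 (SE 0.058, adjusted p = 0.00518), a call that was lost with TPM, where its adjusted p was the highest of the 4e-05 to 0.0944 found over all alternatives.

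EEF1A1, the main form of eEF1A, was the most abundant member and ranked 12 among all protein-coding genes by its mean CTR FPKM. It was at 2759, 2667 and 2666 FPKM in the CTR libraries and at 2816, 2902 and 2899 in the miR-8485 libraries. The groups did not overlap, yet the difference of 0.09 (SE 0.045, adjusted p = 0.12) was not called. It was called with voom on the recovered fragments (adjusted p = 0.0179), after removal of the trend against gene length (0.0192) and without CTR replicate 1 (0.0193), and its adjusted p reached 0.764 under quantile normalization. The sixth gene of the class, EEF1G, which anchors the eEF1B complex, was listed at 0 in every library. Its exon bases lie to 99.7% within exons of AP002990.1, an overlapping protein-coding readthrough gene on the same strand, which was itself at 0.213 to 0.300 FPKM. Whether counting left out fragments shared by both genes was not tested, so the value of 0 says nothing of EEF1G expression.

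Initiation factors as a class did not move together. Of 44 tested, 13 rose (29.55%), 17 fell (38.64%) and 14 were not called, and their median log2 fold change was -0.01. The shares over all genes tested were 29.1% and 30.5%, so a split of this kind is not particular to these genes. Of the 5 elongation factors tested, 4 rose and 0 fell, with a median of 0.575. All 5 had a log2 fold change above 0, so none could be called lower in this fit, and with voom 5 rose and 0 fell. In single libraries, the median of the initiation factors relative to the CTR mean was -0.011 to -0.008 with the mimic, and that of the elongation factors was 0.614, 0.555 and 0.557. The CTR libraries themselves spread from -0.005 to 0.004 and from -0.016 to 0.016. The elongation factors are few, and 3 of the 5 (EEF1A2, EEF2 and EEF1D) rose by more than 0.5. When EIF5A and its relatives, which act in elongation despite their name, were counted there, 5 of 8 rose, 1 fell and the median was 0.220. With the first letters of the symbol as the only criterion, the 50 EIF genes had a median of -0.016 (15 rose, 18 fell) and the 12 EEF genes one of 0.388 (8 rose, 1 fell).

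Summed over the class, elongation factor genes were at 4025 to 4057 FPKM in CTR and at 4853 to 4954 with the mimic, whereas the initiation factors were at 2265 to 2281 and at 2299 to 2330. As a share of the summed FPKM of each library, the elongation factors took 1.18% to 1.26% in CTR and 1.31% to 1.41% with the mimic. The initiation factors took 0.672% to 0.701% and then 0.631% to 0.655%. On this scale the groups did not overlap for either class, and the classes moved in opposite directions. These sums include EEF1G at 0 and EIF4A1 at a mean of 1.03 FPKM in CTR and 1.04 with the mimic. Both listed levels are uncertain because of overlapping genes, and how far the sums depend on them was not tested. EEF1A1 alone took 0.785% to 0.854% in CTR and 0.762% to 0.826% with the mimic, ranges that overlap, while EEF2 went from between 0.253% and 0.274% to between 0.381% and 0.415%.

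**Figure D2:**
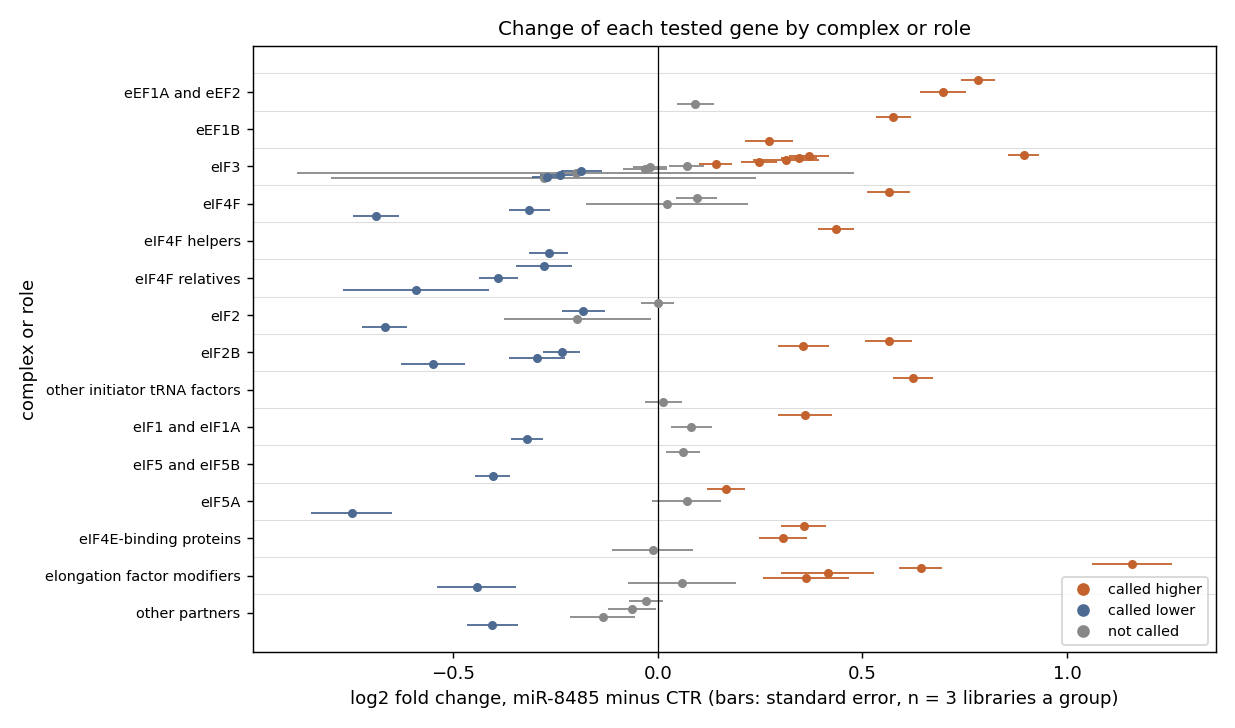
Log2 fold change with its standard error (bars, n = 3 libraries a group) for the same 61 genes (without EIF1AY), in rows by complex or role and coloured by the limma call. The elongation factors lie between 0.09 (EEF1A1, below 0 with TPM) and 0.78, the eIF4F relatives are all below 0, and eIF2B and eIF3 hold genes called in both directions.

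The 14 genes of eIF3, the large scaffold that joins the small ribosomal subunit to eIF4F, split. EIF3E, EIF3F, EIF3G, EIF3H, EIF3I and EIF3L rose, EIF3D, EIF3J and EIF3M fell, and 5 were not called. The shares called were 42.86% up and 21.43% down, beside 29.1% and 30.5% of all genes tested. EIF3F, which with EIF3H and EIF3M belongs to a module of the complex, was at 18.8, 18.7 and 18.9 FPKM in CTR and at 35.3, 34.6 and 35.1 with the mimic. Its rise of 0.89 (SE 0.038, adjusted p = 3.9e-06) was the largest among the initiation factors and stood far outside the spread of either group. EIF3H was at 72.1, 70.3 and 71.2 FPKM against 76.2, 80.7 and 78.7, and its rise of 0.14 (SE 0.040, adjusted p = 0.0173) was lost in 4 of the alternatives, with adjusted p values of 0.00297 to 0.708. EIF3M, the third of them, was at 32.8, 30.1 and 29.7 FPKM against 26.6, 27.4 and 27.3, a fall with no overlap of -0.19 (SE 0.050, adjusted p = 0.0144, range over alternatives 0.00399 to 0.144).

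Among the other eIF3 subunits that rose, EIF3E was at 126.6, 120.3 and 115.6 FPKM in CTR and at 151.3, 160.3 and 156.6 with the mimic (log2 fold change 0.37, adjusted p = 4.4e-04). EIF3G, an RNA-binding subunit, was at 44.6, 44.5 and 45.4 FPKM against 59.8, 55.8 and 55.4 (0.34, adjusted p = 4.3e-04). EIF3I, the most abundant subunit per length, was at 181, 193 and 188 FPKM against 227, 226 and 214 (0.25, adjusted p = 0.00229). The groups did not overlap in any of the 3 genes, but the EIF3I call was lost once the trend against gene length was removed (adjusted p = 0.23, range over alternatives 5.5e-05 to 0.23). EIF3L was at 60.0, 70.0 and 74.7 FPKM against 81.0, 86.1 and 86.5, again without overlap (0.31, SE 0.080, adjusted p = 0.0115), and it was lost with TPM at 0.0581, the highest of its alternatives. It has 41.1% of its exon bases in common with another annotated gene on the same strand.

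EIF3D, which can bind the cap of some mRNAs, fell from 79.7, 77.0 and 75.8 FPKM to 65.1, 64.3 and 63.4 (log2 fold change -0.27, adjusted p = 8e-04). EIF3J, a loosely attached subunit, was at 21.2, 22.3 and 22.2 FPKM in CTR and at 17.7, 19.0 and 19.0 with the mimic (log2 fold change -0.24, adjusted p = 0.00384). The groups of both genes were apart. The core subunits EIF3A (0.07, adjusted p = 0.201), EIF3B (-0.02, adjusted p = 0.722) and EIF3K (-0.03, adjusted p = 0.637) had overlapping groups, at mean CTR levels of 67.3, 50.9 and 46.4 FPKM.

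EIF3C and EIF3CL, near-identical copies of the same gene whose reads can be split between them, varied most among replicates. EIF3C was at 1.74, 8.08 and 5.66 FPKM in CTR and at 2.51, 3.68 and 4.81 with the mimic, and EIF3CL was at 0.879, 7.55 and 1.30 FPKM and at 1.91, 1.59 and 1.94. In both genes CTR replicate 2 was the highest library and CTR replicate 1 the lowest, so the groups overlapped. Their log2 fold changes of -0.28 (SE 0.519) and -0.20 (SE 0.681) were not called, with adjusted p values of 0.666 and 0.815. Without CTR replicate 2 the value of EIF3CL became 0.70 (adjusted p = 0.0275, range over alternatives 0.0275 to 0.913), and without CTR replicate 1 EIF3C was called (adjusted p = 0.0281, range 0.0281 to 0.961).

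**Figure D3:**
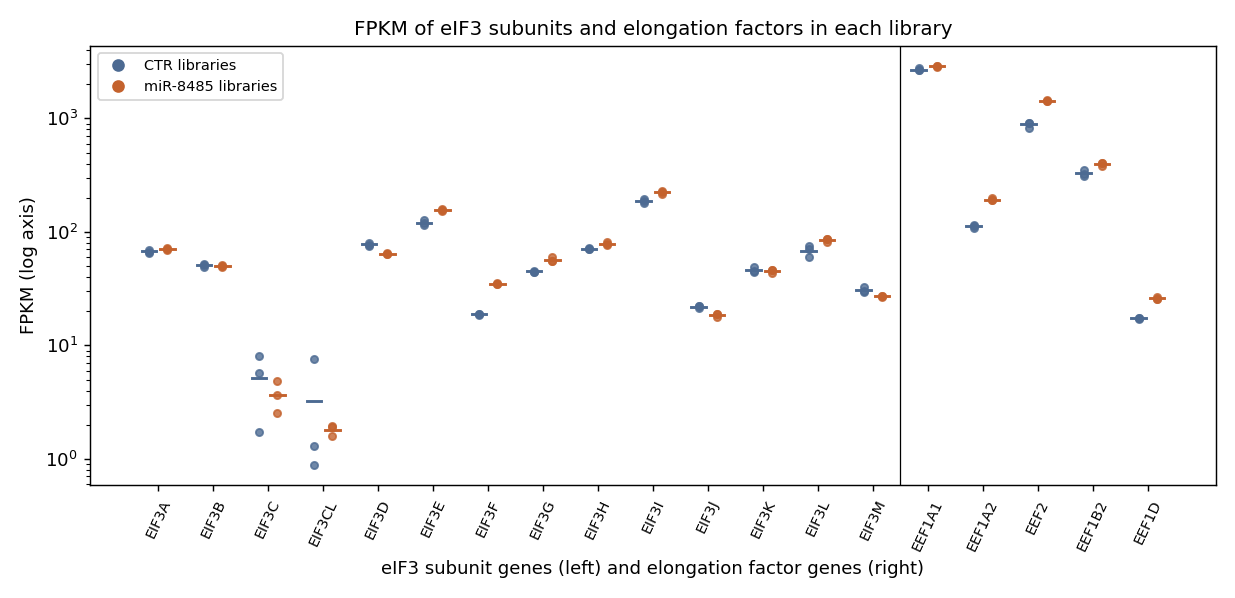
FPKM on a log axis of the 14 eIF3 subunit genes and the 5 tested elongation factor genes, with a point for each library and a line at the mean of each group of 3. EIF3F and EEF2 lie clearly higher in the miR-8485 libraries, EIF3D lies lower, and the CTR points of EIF3CL range from 0.879 to 7.55 FPKM.

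Set against the other members, the eIF3 subunits had a median log2 fold change of 0.026, and the 48 other members tested had one of 0.039 (17 rose, 16 fell, 15 were not called). The difference of -0.013 changed sign under several alternatives, and it was 0.119 without CTR replicate 2, so no direction can be given. Without EIF3C and EIF3CL the median of the 12 subunits left was 0.106, with the same 6 rises and 3 falls. The eIF3 subunits had 6 rises and 3 falls, whereas of the 30 other initiation factors 7 rose and 14 fell, with a median of -0.092. Over all genes tested, 29.1% rose and 30.5% fell. With TPM, 4 eIF3 subunits rose and 3 fell. With a mean of at least 5 FPKM, the median of the other initiation factors was 0.006. In sum, eIF3 genes were at 807 to 825 FPKM in CTR and at 909 to 926 with the mimic, and the other initiation factors at 1456 to 1467 and at 1391 to 1419. Neither pair of ranges overlapped, though the sum of the other initiation factors includes EIF4A1, whose listed level is uncertain. As a share of the library's summed FPKM the eIF3 ranges did overlap, at 0.242% to 0.250% in CTR and 0.246% to 0.259% with the mimic.

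Of the 5 eIF4F genes, EIF4A2 and EIF4E fell, EIF4G3 rose, and EIF4A1 and EIF4G1 were not called. Over all genes tested, the shares were 29.1% up and 30.5% down. EIF4A2, a helicase form, was at 67.0, 61.4 and 60.8 FPKM in CTR and at 40.7, 37.1 and 39.3 with the mimic, a fall of -0.69 in log2 units (SE 0.056, adjusted p = 4.6e-05). EIF4E, which binds the cap, was at 7.87, 7.94 and 7.76 FPKM against 6.12, 6.44 and 6.34, a fall of -0.32 (SE 0.050, adjusted p = 0.00116). The groups were apart in both genes. The scaffold EIF4G3 was at 5.13, 4.99 and 5.05 FPKM in CTR and rose to 7.25, 7.74 and 7.59 (0.56, SE 0.053, adjusted p = 9.3e-05). EIF4G1, the main scaffold, was at 72.3, 79.8 and 80.3 FPKM against 83.3, 82.4 and 82.3, which did not overlap but was not called (0.10, SE 0.050, adjusted p = 0.139). Voom on the recovered fragments and both fits without the length trend called it, with adjusted p values of 0.00611 to 0.737 over all alternatives.

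EIF4A1, the other helicase form, was listed at 0.856, 1.16 and 1.07 FPKM in CTR and at 0.953, 1.01 and 1.16 with the mimic, and the groups overlapped (0.02, SE 0.198, adjusted p = 0.935). These low values come from 82 to 118 fragments a library. Of its exon bases, 47.4% are shared with other annotated genes on the same strand, SENP3-EIF4A1 and AC016876.2 among those that overlap it. Whether fragments were left out for that reason was not tested, so its level is uncertain.

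The helpers of eIF4A went apart. EIF4B, which stimulates the helicase, rose from 106, 105 and 108 FPKM to 138, 148 and 146 (log2 fold change 0.43, SE 0.044, adjusted p = 1.3e-04). EIF4H, a related protein, was at 186, 198 and 206 FPKM against 165, 161 and 164, a fall of -0.27 (SE 0.047, adjusted p = 0.00199). In neither gene did the groups overlap. All 3 tested relatives of the cap complex fell, where 30.5% of all genes tested fell. EIF4G2, a scaffold that does not bind eIF4E, went from 145, 156 and 156 FPKM to 112.1, 119.8 and 116.5 (-0.39, adjusted p = 3.1e-04), and EIF4E2, a cap-binding repressor, changed by -0.28 (adjusted p = 0.00938). EIF4E3, a further cap-binding protein, was at 1.38, 1.73 and 1.52 FPKM against 0.832, 1.14 and 1.01 (-0.59, SE 0.178, adjusted p = 0.0228), a call lost without CTR replicate 2, CTR replicate 3 or miR-8485 replicate 1 and with the replicate block and the length trend removed together (range over alternatives 2.8e-04 to 0.0813). EIF4E1B, a germline form, was at a mean of 0.0316 FPKM in CTR and 0.00998 with the mimic, below the filter.

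Opposite to EIF4E, its inhibitors were higher. EIF4EBP1 was at 113, 102 and 105 FPKM in CTR and at 139.9, 128.6 and 125.7 with the mimic (0.30, SE 0.059, adjusted p = 0.0031). EIF4EBP2 was at 22.5, 23.6 and 25.0 FPKM against 29.1, 31.0 and 31.0 (0.36, SE 0.054, adjusted p = 0.00101). Neither gene had overlapping groups, but removal of the length trend ended the EIF4EBP1 call, and its adjusted p ranged from 6.6e-05 to 0.15. EIF4EBP3 was at 0.320 and 0.185 FPKM, below the filter, and shares 73.2% of its exon bases with ANKHD1-EIF4EBP3. EIF4ENIF1, which carries eIF4E into the nucleus, was not called (-0.01, adjusted p = 0.916).

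The subunits of eIF2, which holds the initiator tRNA, did not change alike. EIF2S2, the beta subunit, was at 67.5, 60.1 and 63.2 FPKM in CTR and at 41.3, 40.0 and 38.5 with the mimic, and fell by 0.67 (SE 0.055, adjusted p = 4.8e-05). EIF2S1, the alpha subunit whose phosphorylation blocks initiation, was at 37.7, 35.2 and 35.2 FPKM against 31.8, 33.3 and 30.2 (-0.18, SE 0.053, adjusted p = 0.0195), without overlap. EIF2S3, the gamma subunit, was at 71.1, 73.3 and 75.4 FPKM against 72.6, 73.7 and 73.2, with overlapping groups (-0.001, SE 0.040, adjusted p = 0.98). The call for EIF2S1 was lost without the length trend or without miR-8485 replicate 3, at adjusted p values of up to 0.0727. EIF2S3B, a copy of EIF2S3, was at about 1.51 FPKM in CTR and was not called.

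The 5 subunits of eIF2B, the factor that reloads eIF2 with GTP, were all called, 2 up and 3 down. The alpha subunit EIF2B1 rose from 15.1, 15.9 and 14.3 FPKM to 23.4, 21.4 and 22.2 (0.56, SE 0.057, adjusted p = 1.4e-04), and the delta subunit EIF2B4 rose by 0.35 (adjusted p = 0.00202). The gamma subunit EIF2B3 fell from 6.23, 6.06 and 6.17 FPKM to 4.28, 4.54 and 3.74 (-0.55, SE 0.079, adjusted p = 7.3e-04). The beta subunit EIF2B2 (-0.30, adjusted p = 0.00775) and the catalytic epsilon subunit EIF2B5 (-0.24, adjusted p = 0.00316) fell too. In none of the 5 genes did the groups overlap, and all 5 kept their calls under every alternative run. Over all genes tested, 29.1% rose and 30.5% fell, and the groups did not overlap in 32.5% (higher) and 34.0% (lower). Of the factors that can bring tRNA without eIF2, EIF2D rose from 5.61, 5.92 and 5.72 FPKM to 8.94, 8.81 and 8.98 (0.62, SE 0.049, adjusted p = 4.2e-05), and EIF2A, at a mean of 36.5 FPKM in CTR, was not called (0.01, adjusted p = 0.824).

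Of the factors that guard start-site choice, EIF1 was at 123, 116 and 119 FPKM in CTR and at 94.7, 96.1 and 95.6 with the mimic (-0.32, SE 0.039, adjusted p = 3.4e-04). Its close relative EIF1B was at 18.4, 19.8 and 21.4 FPKM against 26.6, 25.3 and 24.6 (0.36, SE 0.066, adjusted p = 0.00237). The groups were apart in both genes, in opposite directions. EIF1AX (0.08, adjusted p = 0.197) and its copy EIF1AY were not called. EIF5, which triggers GTP hydrolysis on eIF2, fell from 30.8, 31.0 and 30.5 FPKM to 24.1, 23.0 and 22.6 (-0.40, SE 0.043, adjusted p = 1.6e-04), and EIF5B, which joins the ribosomal subunits, was not called (0.06, adjusted p = 0.238).

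EIF5A carries hypusine and helps the ribosome past difficult peptide bonds. It was at 321, 309 and 308 FPKM in CTR and at 369, 345 and 339 with the mimic, without overlap (0.17, SE 0.047, adjusted p = 0.0164). That call was lost in 7 of the alternatives, CTR replicate 2, CTR replicate 3 or miR-8485 replicate 1 left out among them, with adjusted p values of 0.00125 to 0.43. The second form, EIF5A2, was at 4.49, 5.71 and 5.37 FPKM against 3.16, 2.86 and 3.10, the largest fall among the members (-0.75, SE 0.099, adjusted p = 5e-04). EIF5AL1, a further copy, had overlapping groups (0.07, adjusted p = 0.506).

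Among the 13 partners and modifying enzymes tested, 6 rose (46.15%), 2 fell (15.38%) and 5 were not called, with a median of 0.06. Over all genes tested, 29.1% rose and 30.5% fell. Most of the rises were in enzymes that modify elongation factors. EEF1AKMT3, a lysine methyltransferase of eEF1A, was at 1.40, 1.57 and 1.64 FPKM in CTR (80 to 94 fragments) and at 3.77, 3.50 and 3.36 with the mimic, the largest rise of any member (1.16, SE 0.098, adjusted p = 5.7e-05). EEF2KMT, which methylates eEF2, went from 6.58, 6.59 and 6.98 FPKM to 10.8, 10.5 and 10.2 (0.64, SE 0.052, adjusted p = 4.5e-05). Groups were apart in both. EEF1AKMT1 (0.36, adjusted p = 0.0196, lost in 6 of the alternatives, among them without CTR replicate 2 or 3 and without the length trend, range 0.00746 to 0.198) and EEF1AKMT4 (0.41, adjusted p = 0.0146, lost with TPM, range 0.003 to 0.0571) rose as well, and EEF1AKMT2 was not called (0.06, adjusted p = 0.715).

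EEF2K, the kinase that inhibits eEF2, fell from 3.89, 4.47 and 4.91 FPKM to 3.43, 3.09 and 3.14 (-0.44, SE 0.097, adjusted p = 0.00565), and its groups did not overlap. EIF1AD, a protein with an eIF1A-like domain, fell too (-0.41, adjusted p = 0.00101). EIF6, which keeps the large ribosomal subunit from joining too early (-0.06, adjusted p = 0.382), EIF4A3, the helicase of the exon junction complex (-0.03, adjusted p = 0.562), and EEF1E1, a part of the multisynthetase complex (-0.14, adjusted p = 0.179), were not called. With TPM, 4 partners rose and 3 fell, and with the length trend removed 4 rose and 4 fell.

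Ratios within a library do not depend on a factor common to its genes, but they can move with a trend against gene length. The FPKM of EEF1A2 was 3.93%, 4.33% and 4.19% of that of EEF1A1 in CTR and 7.01%, 6.56% and 6.54% with the mimic, that is 4.15% ± 0.204 against 6.70% ± 0.270 (SD, n = 3 libraries). The share of EIF5A2 relative to EIF5A was 1.67% ± 0.235 and then 0.865% ± 0.0432, and that of EIF1B relative to EIF1 was 16.7% ± 1.58 and then 26.7% ± 1.24. All 3 pairs were apart in every library, 2 with the minor form higher and EIF5A2 with the minor form lower. For EIF4G3 relative to EIF4G1 the values were 6.55% ± 0.470 and 9.11% ± 0.363, and for EIF4G2 relative to EIF4G1 they were 197% ± 3.70 and 140.5% ± 5.46.

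Factors and their inhibitors moved apart as well. The ratio of EEF2 to its kinase EEF2K was 210, 205 and 187 in CTR and 411, 464 and 464 with the mimic. EIF4EBP1 exceeded EIF4E 14.3, 12.8 and 13.5 times in CTR and 22.9, 20.0 and 19.8 times with the mimic, and EIF4EBP2 exceeded it 2.86, 2.97 and 3.22 and then 4.75, 4.81 and 4.89 times. In both pairs every miR-8485 library was above every CTR library. EIF4EBP1 and EIF4E have listed lengths of 1073 and 14067 bases, and with the trend against gene length removed the log2 change of their ratio was 0.24 instead of 0.62, while that of EIF4EBP2 to EIF4E was 0.60 instead of 0.67. EIF2B1 stood at 1.21 to 1.32 times EIF2B5 in CTR and at 2.15 to 2.27 times with the mimic, and EIF2S2 at 0.820 to 0.950 and then 0.526 to 0.569 times EIF2S3. For each of the 13 ratios computed, the exact two-sided permutation test gave p = 0.1 (also 0.1 after Benjamini-Hochberg adjustment), the smallest value that 3 against 3 libraries allow.

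**Figure D4:**
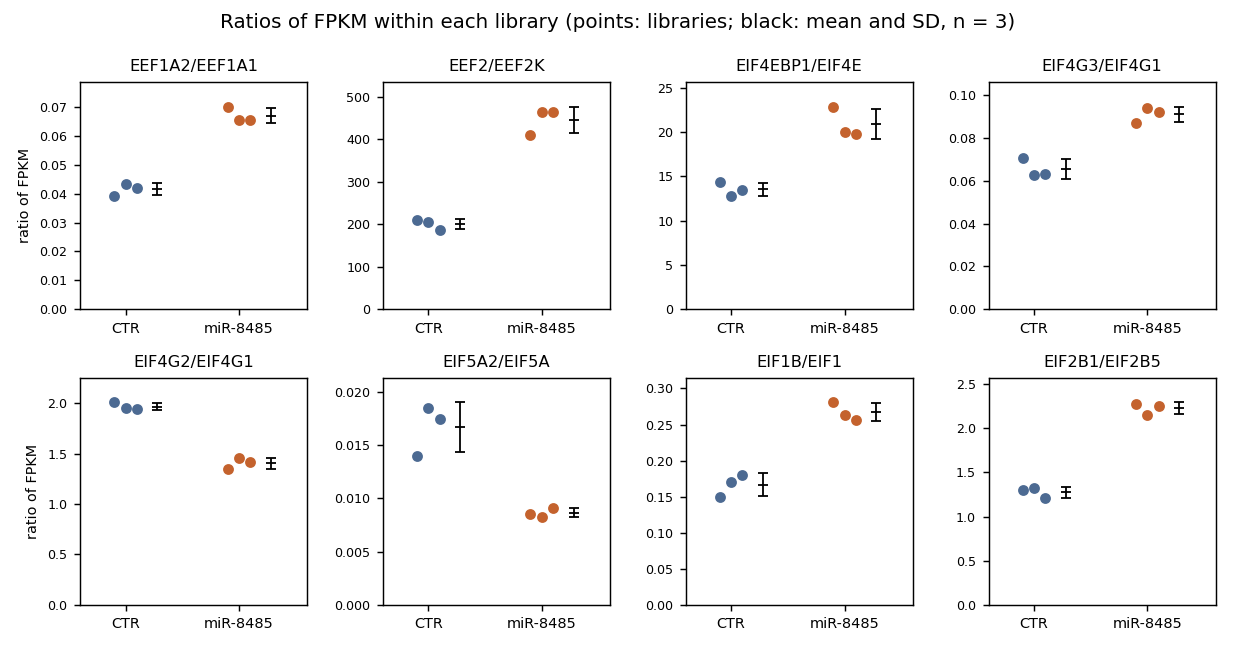
Ratio of the FPKM of 2 genes in each library (points) with the mean and SD of each group of 3 (black), on axes that start at 0. The EEF1A2 to EEF1A1, EEF2 to EEF2K, EIF4EBP1 to EIF4E, EIF4G3 to EIF4G1, EIF1B to EIF1 and EIF2B1 to EIF2B5 ratios are higher in all 3 miR-8485 libraries, and the EIF4G2 to EIF4G1 and EIF5A2 to EIF5A ratios are lower.

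The starts of the genes are shown because TOP tracts mark translation genes, and the members with such starts moved in both directions. RefSeq (GRCh38.p14) gave a start for 54 of the 67 members. A start was counted as TOP-like if a C followed by at least 4 pyrimidines began within 3 bases of an annotated start on the sense strand. Each window runs from 10 bases before the annotated start to 20 bases into the transcript, and the capitals mark the C and its pyrimidine run. The first belongs to EEF1A1, which was not called, the next 4 to genes that rose and the last 2 to genes that fell.
EEF1A1, chr6:73521013-73521042, minus strand: cgtgaacgttCTTTTTCgcaacgggtttgc
EEF2, chr19:3985444-3985473, minus strand: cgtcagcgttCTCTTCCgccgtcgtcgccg
EEF1B2, chr2:206159885-206159914, plus strand: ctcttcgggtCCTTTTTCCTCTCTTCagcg
EIF3F, chr11:7987327-7987356, plus strand: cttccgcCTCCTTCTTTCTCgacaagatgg
EIF4B, chr12:53006446-53006475, plus strand: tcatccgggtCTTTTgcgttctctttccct
EIF3D, chr22:36529147-36529176, minus strand: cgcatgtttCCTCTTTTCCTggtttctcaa
EIF4A2, chr3:186783567-186783596, plus strand: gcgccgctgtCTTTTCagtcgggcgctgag

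Of the 49 tested members with a RefSeq start, 18 (36.7%) had such a start, where the share over all 8567 tested protein-coding genes with one was 19.4%. With a TOP-like start, 6 members rose and 6 fell with a median log2 fold change of 0.006, and without it 7 of 31 rose and 12 fell with a median of -0.029. Over all protein-coding genes, 545 of 1666 with such a start rose and 486 fell, with a median of 0.027. Without it 1859 of 6901 rose and 2391 fell, with a median of -0.047. When the run could begin up to 10 bases from the start, the shares were 57.1% of members and 41.5% of all. With that rule 7 of 28 members with such a start rose and 12 fell (median -0.125). Without it 6 of 21 rose and 6 fell (median 0.021), so the order of the medians was reversed. Over all protein-coding genes 1079 of 3557 rose and 1131 fell with it (median -0.002). Without it 1325 of 5010 rose and 1746 fell (median -0.052). EEF2, EEF1B2, EIF3F and EIF4B carried the tract and rose, and EIF3D and EIF4A2 carried it and fell. Among the 49 members with a RefSeq start, rises and falls thus occurred both with and without the tract. Tested members without a RefSeq start were not assessed. Of these, EEF1A2, EEF1D, EIF3E, EIF3G, EIF3H, EIF3L, EIF4EBP1, EEF1AKMT1, EEF1AKMT3 and EEF2KMT rose, and only EIF2S2 fell. Over all 62 tested members 23 rose and 19 fell. Many of the rises were therefore left unassessed, and the 49 members do not stand for all members in direction. A match is only a description of letters in this window.

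Sites for the mimic were counted as TGTGTGT, overlapping copies included, in the 3′ UTR of the canonical GENCODE transcript on the sense strand. Of the 62 tested members, 14 (22.6%) had at least 1 copy, beside 28.9% of 10663 tested protein-coding genes. With a site, 4 members rose and 6 fell with a median of 0.037, and without it 19 rose and 13 fell with a median of 0.039. The share of members that fell was 42.9% with a site and 27.1% without. Over all protein-coding genes the medians were -0.157 with a site and 0.019 without, and 44.6% against 29.2% fell. Genes with a site also had longer 3′ UTRs, at a median of 2718 against 877 bases (2237 against 640 among the members). The part of length in these differences was not tested. At least 5 copies were found in 3 members (4.84%) and in 4.78% of all genes, and these 3 are shown around a copy, with the repeat in capitals.
EIF4E3, chr3:71678143-71678172, minus strand: tagatttccagTGTGTGTGTggtgattaga
EEF2K, chr16:22286229-22286258, plus strand: gtgttacatttTGTGTGTGTGTGTgcgtgt
EIF3F, chr11:7998072-7998101, plus strand: taaacggtgacTGTGTGTGTatatatatat

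EIF4E3 had 7 copies in 9268 bases of 3′ UTR, EIF3F 6 in 5830 bases and EEF2K 5 in 4742 bases. EIF4E3 and EEF2K fell, as did 60.4% of all genes with at least 5 copies (median -0.36). The median 3′ UTR length of those genes was 3767 bases, beside 1218 in the rest, of which 32.3% fell. EIF3F rose from a mean of 18.8 to 35.0 FPKM with 6 copies in this 3′ UTR. Which 3′ UTR form these cells used was not measured. Of the members with the largest falls, EIF2S2 had 1 copy and EIF4A2 and EIF5A2 had 0. Only perfect matches in the 3′ UTR of the canonical transcript were counted. Whether any change followed from pairing with the mimic was not tested.

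Other genes of translation, in 6 lists of 63 genes, 61 of them tested, also moved both ways, with 22 up, 17 down and a median of 0.052. Over all genes tested 29.1% rose and 30.5% fell, and the counts of each list below are to be read beside these shares. With TPM the split was 14 up and 23 down. The list of enzymes that build diphthamide on eEF2 or hypusine on eIF5A lay on the side of the elongation factors. Of 8 tested, 5 rose and 0 fell (0 also at an unadjusted p under 0.05 and with voom), with a median of 0.452. DPH5 rose from a mean of 10.6 to 17.2 FPKM (0.69) and DPH2 from 16.6 to 25.2 FPKM (0.60), both in the diphthamide pathway.

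The termination and recycling factors had 0 rises (0 also at an unadjusted p under 0.05 and with voom) and 3 falls among 5 tested. PELO, which rescues stalled ribosomes, fell from a mean of 12.8 to 8.80 FPKM (-0.54) and ETF1, the release factor that reads stop codons, from 59.7 to 51.8 FPKM (-0.20). Of the 9 eIF2 kinases and phosphatase subunits, 2 rose and 4 fell. EIF2AK2, the kinase activated by double-stranded RNA, fell from 7.24 to 3.19 FPKM (-1.16) and PPP1CC, a catalytic phosphatase subunit, from 44.1 to 24.8 FPKM (-0.83). The heme-regulated kinase EIF2AK1 rose (0.26, adjusted p = 0.00222, lost with TPM at 0.0694, the highest of its alternatives). PPP1CB rose too (0.17, adjusted p = 0.0193), a call lost with TPM (0.519) and without CTR replicate 2, CTR replicate 3, miR-8485 replicate 2 or miR-8485 replicate 3 (range over alternatives up to 0.519).

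Of 14 genes of mTOR and MNK control, 4 rose and 4 fell. PDCD4, an inhibitor of eIF4A, rose from 7.32 to 16.2 FPKM (1.14) and AKT1S1, an inhibitor of mTORC1, from 16.5 to 29.1 FPKM (0.82), while the kinase RPS6KB1 (-0.59) and the mTORC1 activator RHEB (-0.53) fell. Of 14 poly(A) binding and other initiation partners, 6 rose and 5 fell. PABPC1, the main poly(A) binding protein, rose from 561 to 793 FPKM (0.50, but 0.23 and no longer called under quantile normalization, with an adjusted p of 0.0528, the highest of its alternatives) and PABPC4 from 37.3 to 51.9 FPKM (0.47), while GCN1, which activates the kinase GCN2, fell from 36.2 to 20.4 FPKM (-0.82) and the helicase DDX3X from 21.2 to 13.4 FPKM (-0.66). Of 11 mitochondrial translation factors, 5 rose and 1 fell with a median of 0.232, GUF1 (0.55) and the recycling factor MRRF (0.46) among the rises and the elongation factor GFM1 (-0.44) the fall.

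Annotation overlap limits a few members. Among the 67, 54 were overlapped by some listed gene and 11 by a protein-coding gene on the same strand. At least 50% of exon bases were shared with another gene on the same strand in 4 of all 67 members. These were EEF1G, EIF4EBP3 and both readthrough genes, none of which was tested. Among the 62 tested members the count was 0, with EEF1AKMT4 the highest at 49.2%, beside 0.795% of 10695 tested protein-coding genes. Exon bases shared with genes on the opposite strand were not counted, and the strand setting of the counting was not known. EEF2KMT and EEF1AKMT3, for example, overlap ALG1 and METTL1 on the opposite strand. The 5 members below the filter were EEF1G and the readthrough genes EEF1E1-BLOC1S5 and EEF1AKMT4-ECE2, all listed at 0 in every library, with EIF4E1B and EIF4EBP3.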

How the data were processed

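Total RNA of HCT116 cells was sequenced in 3 CTR and 3 miR-8485 libraries, grouped by the sample labels, and 0 measurement columns were left without a sample. According to their methods and labels, the authors used fastp for trimming, HISAT2 2.0.5 for alignment (hg38) and featureCounts 1.5.0-p3 for counting, and deposited FPKM values. The annotation release and the strand setting of the counting were not given in the sources used here. The gene lengths in the deposited table allowed the fragments behind each FPKM value to be recovered, and precision follows from these.

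FPKM values were tested on log2(FPKM + 0.1), where a fold change of a low gene is understated, with limma 3.58.1 in R 4.3.3, a variance trend, two-sided tests and Benjamini-Hochberg adjustment over all 12349 genes with a mean of at least 1 FPKM. Ratios, sums and sequence counts were computed in Python 3.11.15 with numpy 2.4.6, pandas 2.3.3 and scipy 1.17.1. Starts were read from RefSeq (GRCh38.p14) and 3′ UTRs from GENCODE release 44 on GRCh38. Alternatives were other pseudocounts (1 or 0.01), all genes above 0, a mean of at least 5 FPKM, median-of-ratios scaling, quantile normalization, TPM, subtraction of each library's gene length trend, no variance trend, voom on the recovered fragments, a replicate block (also without the length trend), and each library left out. For class medians, symbols alone or EIF5A counted with elongation were tried too, and a median without EIF3C and EIF3CL, and the ratios without the length trend, were chosen after seeing the data.

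The members, lists, roles and tests were chosen with earlier results of these data known. Every member could be named, and values in each library are given for core factors and for calls of at least 0.5. Of each other list, up to 2 rises and 2 falls among those called were named, those with the largest change. No set test was run.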

Additional observations from a re-analysis of the deposited data

How the results depend on the processing

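The main limits are scaling and a few libraries. With TPM the median of all genes moved from -0.004 to -0.116, and the medians became -0.07 for all members, -0.125 for initiation factors, 0.461 for elongation factors, -0.09 for eIF3, -0.207 for initiation factors other than eIF3 and -0.07 for members other than eIF3. Relative to that shift these were 0.046, -0.009, 0.577, 0.027, -0.09 and 0.046. TPM lowered the rises among other translation genes to 14, and calls over all genes went from 3593 up and 3769 down to 2614 and 4723. With a mean of at least 5 FPKM, which leaves fewer genes (2303 up and 2417 down in all), the medians were 0.07 for all members, 0.035 for initiation factors, 0.106 for eIF3, 0.006 for other initiation factors and 0.066 for members other than eIF3. The difference of initiation minus elongation was then -0.541 and that of eIF3 minus the rest 0.04.

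With the length trend removed, with or without the replicate block, the medians were 0.059 for all members, -0.004 for initiation, 0.688 for elongation and 0.085 for eIF3, and the differences were -0.692 and 0.026. Quantile normalization gave -0.003 for initiation, 0.387 for elongation, and differences of -0.39 and 0.013. The initiation median was 0.001 with median-of-ratios scaling and with voom. Initiation minus elongation was -0.404 by symbol and -0.238 with EIF5A in elongation. Without EIF3C and EIF3CL the eIF3 median was 0.106. The cause of these moves was not tested.

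Leaving out a library gave medians of 0.024 to 0.066 for all members, -0.03 to 0.03 for initiation and 0.022 to 0.148 for eIF3, and differences of -0.615 to -0.528 for initiation minus elongation and -0.007 to 0.119 for eIF3 minus the rest. The highest of each came without CTR replicate 2, and eIF3 minus the rest was 0.001 without miR-8485 replicate 1. EIF3CL ranged from -0.782 to 0.70 and was above 0 without CTR replicate 2. Samples with the same number correlated at 0.067, 0.033 and -0.064 in their deviations, beside -0.094 to 0.061 for different numbers. No effect shared by libraries of the same number was seen, which cannot show whether they were handled as pairs. The replicate block alone left 23 rises and 19 falls among the members and 20 rises among the other genes.

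Of the 62 members, 43 kept direction and call in all alternatives, as did 31 of 42 called. Of the 61 other genes 35 did, and 27 of 39 called. At 3 libraries a group, differences of low genes such as EIF4A1 and EIF2S3B rest on few fragments.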
